A study of Rattus norvegicus with 15 samples.

Results

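The comparison described here set astrocytes that received lipid-coated mitochondria (MitoCoat) after hydrogen peroxide (H2O2) against astrocytes that received H2O2 and no mitochondria. Its members were the 3 samples labelled MitoCoat and the 3 samples labelled H2O2, chosen by their labels, which makes 6 of the 15 samples in the series. All samples were bulk poly(A) RNA-seq of primary wild-type rat astrocytes, which the study's methods describe as prepared from the cortex of newborn rats. The H2O2 samples had been exposed to 100 µM H2O2 for 30 min, and their medium was then replaced. The MitoCoat samples had the same exposure and were given, 24 h later, mitochondria isolated from rat placenta and enclosed in the lipids DOTAP and DOPE, and RNA was collected 6 h after that. The other groups of 3 were control astrocytes given water in place of H2O2, and H2O2-exposed astrocytes given either unmodified placental mitochondria or MitoCoat-mRNA, which is RNA extracted from the placental mitochondrial fraction and enclosed in the same lipids. The methods state that 3 RNA samples per group were drawn at random and the study calls them biological replicates, with in vitro experiments repeated independently. Neither the labels nor the methods tie each sequenced sample to a culture, so p-values measure the spread between these samples, part of which may be technical. The sample descriptions also speak of mitochondria-enriched fractions, whereas the study's results describe RNA of treated astrocytes, and the cell identity could not be checked against marker genes because the gene identifiers could not be paired with names here.

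Astrocytes are glial cells that supply neurons with metabolites and respond to injury by changing their gene expression. Mitochondria carry their own small circular chromosome, which encodes subunits of the respiratory chain and of ATP synthase together with transfer RNAs, while all other mitochondrial proteins are encoded in the nucleus. DOTAP is a positively charged lipid and DOPE a lipid that promotes membrane fusion, and mixtures of them are used to carry cargo into cells. The question put to these samples was which transcripts differ once coated mitochondria have been added to cells injured by H2O2.

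Gene counts summed to between 35315654 and 41374789 per H2O2 sample and to between 38270874 and 42826709 per MitoCoat sample. A total of 15724 genes passed the filter on low counts and were tested with edgeR's quasi-likelihood test, with Benjamini-Hochberg adjustment over all of them and a call at an adjusted p under 0.05. Levels are given as CPM, counts per 1000000 gene counts after normalization. The files list genes by Ensembl identifier with coordinates on rat genome build Rnor6.0, so genes are described by identifier, position and level, and no function is assigned to them.

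Addition of MitoCoat was followed by a change in 479 genes, which is 3.05% of the genes tested. Of these, 231 genes were higher in the MitoCoat samples (1.47% of tested genes) and 248 were lower (1.58%). The genes that rose had a median log2 fold change of 1.17, and 131 of them changed more than 2-fold and 68 more than 4-fold. The genes that fell had a median log2 fold change of −0.73, with 48 changed more than 2-fold and 4 more than 4-fold. The genes that rose included 17 without counts in the H2O2 samples and 33 others under 1 CPM there, whereas every gene that fell had at least 1 CPM. Among the 181 genes that rose from at least 1 CPM, the median log2 fold change was 0.88 and 81 changed more than 2-fold, which is closer to the values of the genes that fell. Over all tested genes the median log2 fold change was 0.0020 and the median absolute value 0.17. The number of calls depended on the tool and on single samples. It was 407 higher and 495 lower with DESeq2 on the 6 samples, 620 and 794 with DESeq2 on all 15 samples, 439 and 465 with edgeR on all 15 samples, and 110 and 91 without MitoCoat replicate 2. The genes changed more than 2-fold numbered 85 higher and 26 lower without that replicate, and 88 fell more than 2-fold with DESeq2 on all 15 samples.

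**Figure D1:**
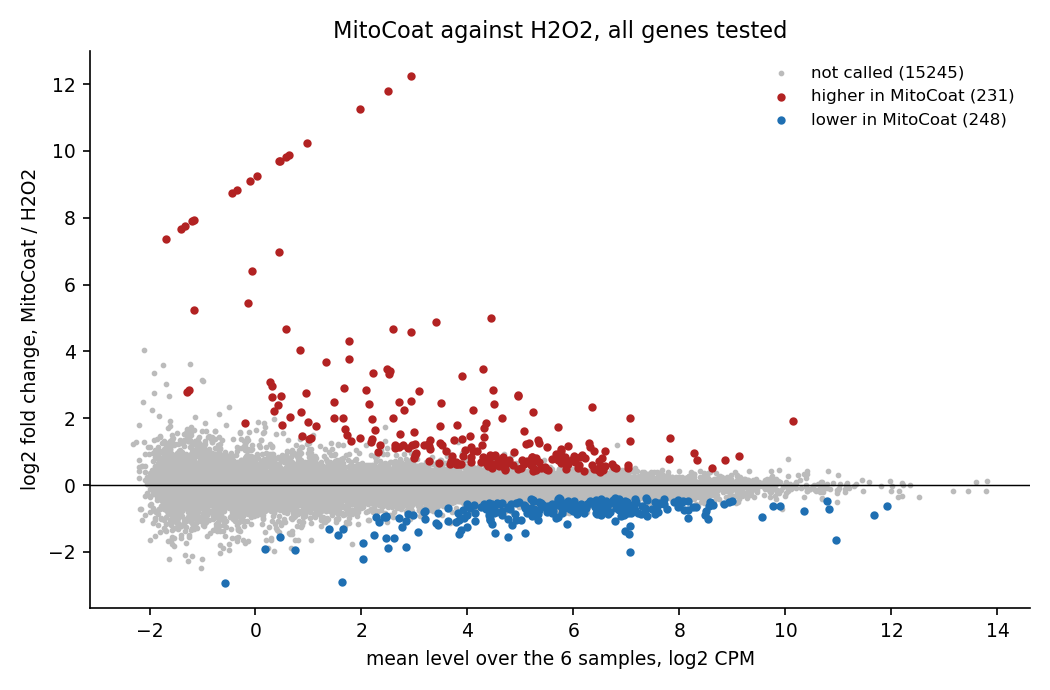
Log2 fold change of MitoCoat over H2O2 (vertical axis) against the mean level over the 6 samples in log2 CPM (horizontal axis), with 1 point per tested gene. Genes that rose (red, 231) extend to large changes at low levels, whereas genes that fell (blue, 248) lie at higher levels and smaller changes, and the straight line of red points at the upper left holds genes with 0 counts in the H2O2 samples, whose fitted fold change depends on the prior count.

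The genes that rose and the genes that fell differed in how abundant their transcripts were. The genes that rose had a median level of 10.4 CPM in the H2O2 samples and 24.1 CPM in the MitoCoat samples. The genes that fell had a median of 68.6 CPM in the H2O2 samples and 45.5 CPM in the MitoCoat samples, and all tested genes had a median of 16.8 CPM in the H2O2 samples. Tested genes were also sorted by their level in the control samples, which were not part of the comparison. Among 2069 tested genes of at least 100 CPM in control astrocytes, 113 fell (5.46%) and 7 rose (0.338%). Among 2426 tested genes under 1 CPM in control astrocytes, 49 rose (2.02%) and 0 fell, although genes at such levels have few counts to lose. These 49 include the 17 genes with 0 counts in every H2O2 sample, which were tested only because of their MitoCoat counts. Their calls were fixed by the filter. In the range from 10 to 100 CPM the counts were close, with 115 of 7357 genes higher and 123 lower. These shares are given without a test.

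Summed levels give the weight of the called genes in the transcriptome, and the direction of their change was fixed by the calls. The 248 genes that fell summed to 46090, 44300 and 48960 CPM in H2O2 replicates 1 to 3 and to 27890, 27840 and 28230 CPM in MitoCoat replicates 1 to 3. The 231 genes that rose summed to 6192, 6594 and 6435 CPM in the H2O2 samples and to 13020, 13010 and 12680 CPM in the MitoCoat samples. Of the 10 most abundant genes called, 9 fell, with log2 fold changes from −1.65 to −0.47. In bulk RNA, fewer cells that express a gene and less RNA per cell cannot be told apart.

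The gene models of both sets were also described. The median exonic length was 2263 bases for genes that rose, 3134 bases for genes that fell and 2251 bases for all tested genes. The median number of exon blocks was 8 in each of these sets. Genes of a single exon block made up 3.46% of genes that rose, 6.05% of genes that fell and 8.13% of tested genes. The span of 73 called genes met that of another annotated gene, for 47 of them on the opposite strand. The counting is described as strand-specific only when applicable, so reads of these genes may be shared with their neighbours. The share of called genes in this position was 15.2%, against 23.0% of all tested genes.

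Among the genes that rose, 17 had 0 counts in every H2O2 sample, and 12 of these also had 0 counts in every control sample. A gene of this kind passes the filter only through the MitoCoat samples and so had to differ, and all 17 such tested genes were called. Against a floor of 3 counts over the H2O2 group, their mean level was between at least 19.9-fold and at least 595-fold higher in the MitoCoat samples. Their summed counts were 4003, 2630 and 711 in MitoCoat replicates 1 to 3, or 92.5, 65.0 and 17.8 CPM. Replicate 3 thus held the lowest sum, and all 17 genes were lower in it than in replicate 1. Of the 17 genes, 8 lie on chromosome 17, which holds 472 of the 15724 tested genes, and 5 on chromosome 1, which holds 1978. With these genes placed at their bounds, all of which lie above it, the median log2 fold change of the genes that rose is by construction the same 1.17. The largest change among the other 214 was 6.97 on the log2 scale. Under 10 counts in every H2O2 sample lay 58 tested genes, the 17 included, of which 23 were called higher and 0 lower. Genes so low pass the filter mainly through their MitoCoat counts, so calls among them are favoured as well. The MitoCoat wells had received placental material, and transcripts carried in with it and transcripts made by the astrocytes cannot be told apart in these counts.

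Among called genes with a mean of at least 1 CPM over the 6 samples, the gene with the largest increase was one of these 17. ENSRNOG00000039975 lies on the plus strand of chromosome 17 from 4165041 to 4167411 and has 5 exon blocks that cover 703 bases. It had 0 counts in all H2O2 and all control samples. In the MitoCoat samples it had 1103, 664 and 146 counts, or 25.5, 16.4 and 3.66 CPM. Its mean of 15.2 ± 11.0 CPM (SD, n = 3) was at least 595-fold above the floor of the H2O2 group, and the spread within the MitoCoat group was wide. No p against H2O2 is given for this gene, since it passed that comparison's filter through its MitoCoat counts alone. The samples given unmodified mitochondria had 240, 250 and 50 counts, and those given MitoCoat-mRNA had 2, 2 and 0 counts.

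The most abundant gene that rose was ENSRNOG00000014117, on the plus strand of chromosome 19 from 14508616 to 14515456, with 5 exon blocks that cover 1566 bases. Its level was 410, 519 and 489 CPM in the H2O2 samples and 1677, 1907 and 1773 CPM in the MitoCoat samples, so every MitoCoat sample exceeded every H2O2 sample. The log2 fold change was 1.91 ± 0.12 (SE), or 3.76-fold, with a 95% interval from 1.64 to 2.18 (edgeR adjusted p = 6.3e-05). Control samples held 240, 226 and 262 CPM. The gene had therefore also risen with H2O2 alone, with a log2 fold change of 0.97 (edgeR adjusted p = 0.0026), and was higher again with MitoCoat. Its level with unmodified mitochondria was 1364, 1459 and 1462 CPM, below every MitoCoat sample, with a log2 difference of 0.32 (95% interval 0.14 to 0.50) that did not pass the test across all genes (edgeR adjusted p = 0.89). MitoCoat-mRNA samples held 482, 417 and 485 CPM, in the range of the H2O2 samples.

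Among called genes with a mean of at least 1 CPM over the 6 samples and groups that did not overlap, the largest decrease was in ENSRNOG00000000952, on the minus strand of chromosome 12 from 9605873 to 9607168, with 2 exon blocks that cover 786 bases. The H2O2 samples had 4.41, 6.19 and 5.51 CPM and the MitoCoat samples 0.370, 0.593 and 1.20 CPM, from 16, 24 and 48 counts. The gene fell by 2.90 on the log2 scale (SE 0.40, 95% interval −3.81 to −2.00, edgeR adjusted p = 0.0052). A gene below that mean had a log2 fold change of −2.92. ENSRNOG00000000952 had already been lower in H2O2 than in control samples, which held 8.59, 10.5 and 12.8 CPM (log2 fold change −0.97, edgeR adjusted p = 0.025). That call for H2O2 against control was lost when control replicate 2 or 3 or H2O2 replicate 1 or 3 was left out, with adjusted p between 0.053 and 0.10. Samples given unmodified mitochondria held 0.617, 0.878 and 1.11 CPM, and those given MitoCoat-mRNA held 3.70, 5.38 and 4.86 CPM.

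The most abundant gene that fell was ENSRNOG00000002919, on the minus strand of chromosome 10 from 90990762 to 90999506, with 10 exon blocks that cover 3661 bases. It held 4420, 4292 and 5343 CPM in the H2O2 samples and 2910, 3060 and 3204 CPM in the MitoCoat samples. The decrease was modest, at −0.62 ± 0.11 (SE) on the log2 scale with a 95% interval from −0.87 to −0.37 (edgeR adjusted p = 0.017), and the groups did not overlap. This call was lost without H2O2 replicate 3, MitoCoat replicate 1 or MitoCoat replicate 2, where the adjusted p was 0.070, 0.062 and 0.092. Control samples held 5536, 5980 and 7151 CPM.

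**Figure D2:**
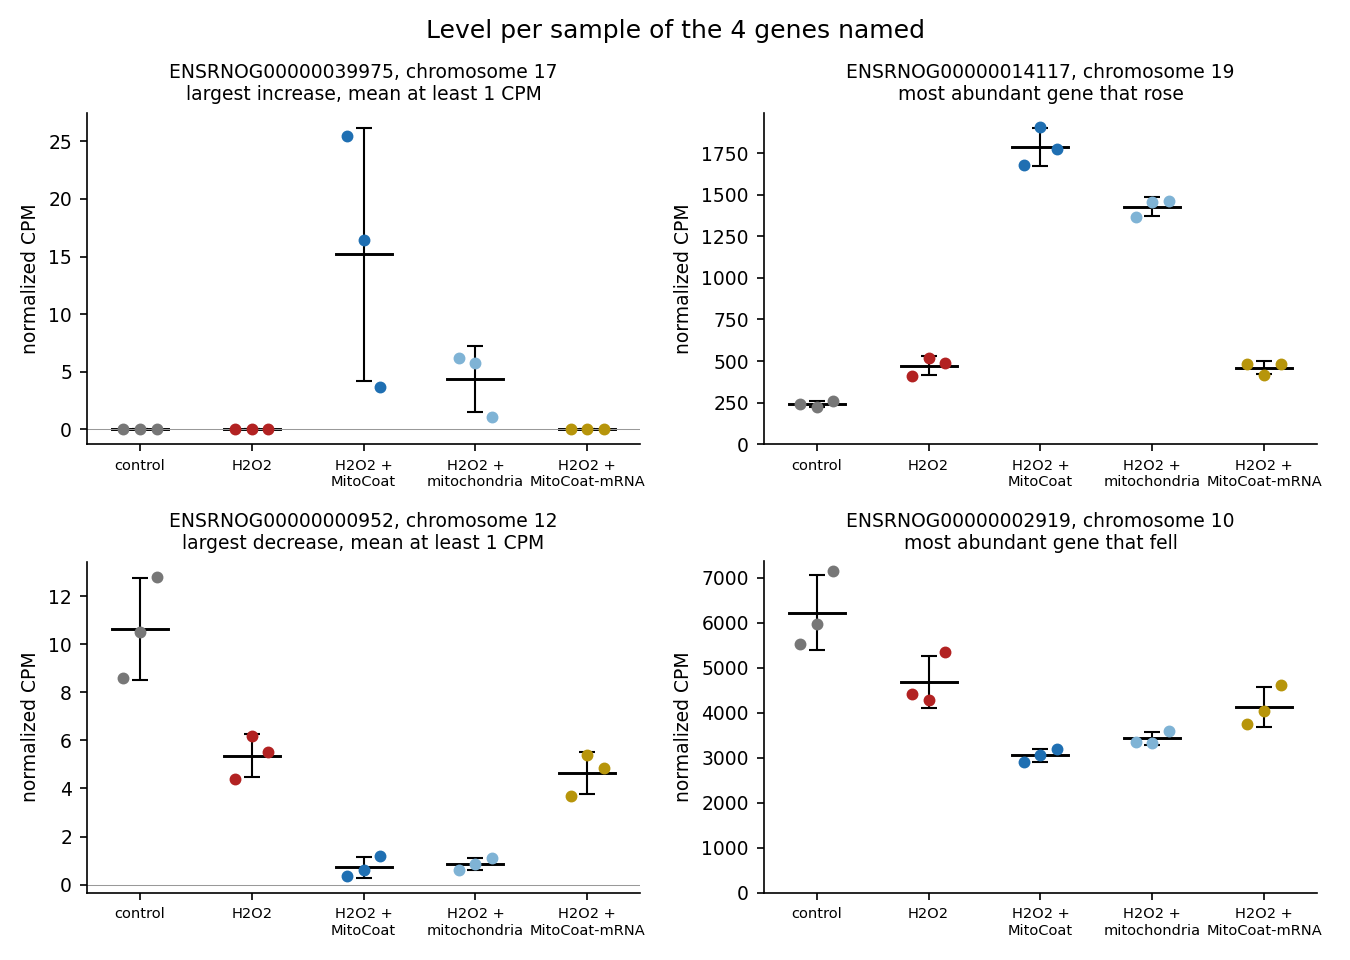
Normalized CPM (vertical axes, from 0) of the 4 genes above in each of the 15 samples, by group, with points for samples and black bars for the mean and SD of 3 samples. MitoCoat and unmodified mitochondria samples lie on the same side of the H2O2 samples in each panel, and MitoCoat-mRNA samples lie near the H2O2 samples.

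Beyond these single genes, the 15 largest increases among called genes with a mean of at least 1 CPM over the 6 samples whose groups did not overlap had log2 fold changes from 4.32 upwards, and 8 of the 15 had 0 counts in the H2O2 samples, where the fitted value and the rank depend on the prior count. Their mean levels were 0 to 1.32 CPM in the H2O2 samples and 2.56 to 42.0 CPM in the MitoCoat samples. On chromosome 17, which holds 472 of the 15724 tested genes, lay 6 of the 15, and 5 of these 6 had 0 counts in the H2O2 samples. The 15 largest decreases under the same conditions had log2 fold changes from −2.90 to −1.49 and started from a wider range of levels, 1.71 to 2978 CPM in the H2O2 samples. In the MitoCoat samples these genes had 0.454 to 956 CPM.

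Some genes that rose were neighbours on their chromosome. Of the 231 genes that rose, 52 had another such gene within 100000 bases, compared with 23 of the 248 genes that fell. No share over all tested genes was computed for this, and the 52 include genes without counts in the H2O2 samples. These counts therefore do not show that genes that rose have more neighbours than other genes. The search for neighbouring genes was chosen after the values had been seen, and the groups of genes below carry no test of their own. With at least 3 genes required, 6 groups of genes that rose and 1 group of genes that fell were found. The groups on chromosomes 12 and 17 held 1 and 4 genes without counts in the H2O2 samples and had fewer than 3 genes otherwise. Such genes were called because of the filter.

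A group of 3 genes on chromosome 12 (chr12:41200718-41363161) held the 3 genes tested there, all called as higher. The 2 genes with counts in the H2O2 samples had log2 fold changes of 4.66 and 4.99, and the third, one of the 17 without such counts, was at least 30.1-fold higher. Their summed level was 2.07, 1.41 and 1.82 CPM in the H2O2 samples and 42.1, 70.5 and 50.1 CPM in the MitoCoat samples. Control samples held 3.74 to 3.97 CPM, and samples given unmodified mitochondria held 55.8, 64.0 and 54.9 CPM, where the same limit on comparing the preparations applies to the third gene as to the chromosome 17 group below. The group was low in H2O2 and control samples and higher in every MitoCoat sample.

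A group of 5 genes on chromosome 17 (chr17:39188311-39575720) included 4 with 0 counts in every H2O2 sample. The summed level was 0, 0.253 and 0.0492 CPM in the H2O2 samples and 25.9, 17.5 and 3.31 CPM in the MitoCoat samples. MitoCoat replicate 3 was again the lowest. The samples given unmodified mitochondria held 6.99, 5.02 and 1.09 CPM, but genes without counts in H2O2 samples entered through their MitoCoat counts, so these sums do not compare the preparations.

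Other groups that rose contained genes already expressed in the H2O2 samples. On chromosome 14 (chr14:18743685-18862407), 3 of 4 tested genes rose and summed to 58.8, 69.1 and 37.6 CPM in the H2O2 samples and to 205, 176 and 324 CPM in the MitoCoat samples. With unmodified mitochondria the sum was 217.9, 185.5 and 542.1 CPM. On chromosome 1 (chr1:252894663-252946170), 3 of 4 tested genes went from 3.99, 3.79 and 2.51 CPM to 13.5, 25.1 and 25.8 CPM, and held 15.25, 25.37 and 37.95 CPM with unmodified mitochondria. Here MitoCoat replicate 3 was the highest, unlike in the chromosome 17 group.

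On chromosome 2 (chr2:248178389-248293784), 3 of 4 tested genes rose from 237, 288 and 270 CPM to 392, 419 and 581 CPM, and held 414, 394.8 and 794.7 CPM with unmodified mitochondria. On chromosome 15 (chr15:34282936-34439861), 3 of 13 tested genes rose from 48.0, 54.9 and 52.7 CPM to 106, 112 and 98.4 CPM, and held 120.5, 121.0 and 116.8 CPM with unmodified mitochondria. The group of genes that fell was also on chromosome 15 (chr15:51834703-51890832), where all 3 tested genes went from a sum of 233, 239 and 228 CPM to 155, 173 and 160 CPM, with 175.8, 177.6 and 147.3 CPM for unmodified mitochondria. The groups that rose on chromosomes 14, 1, 2 and 15 had their highest value in a sample given unmodified mitochondria.

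**Figure D3:**
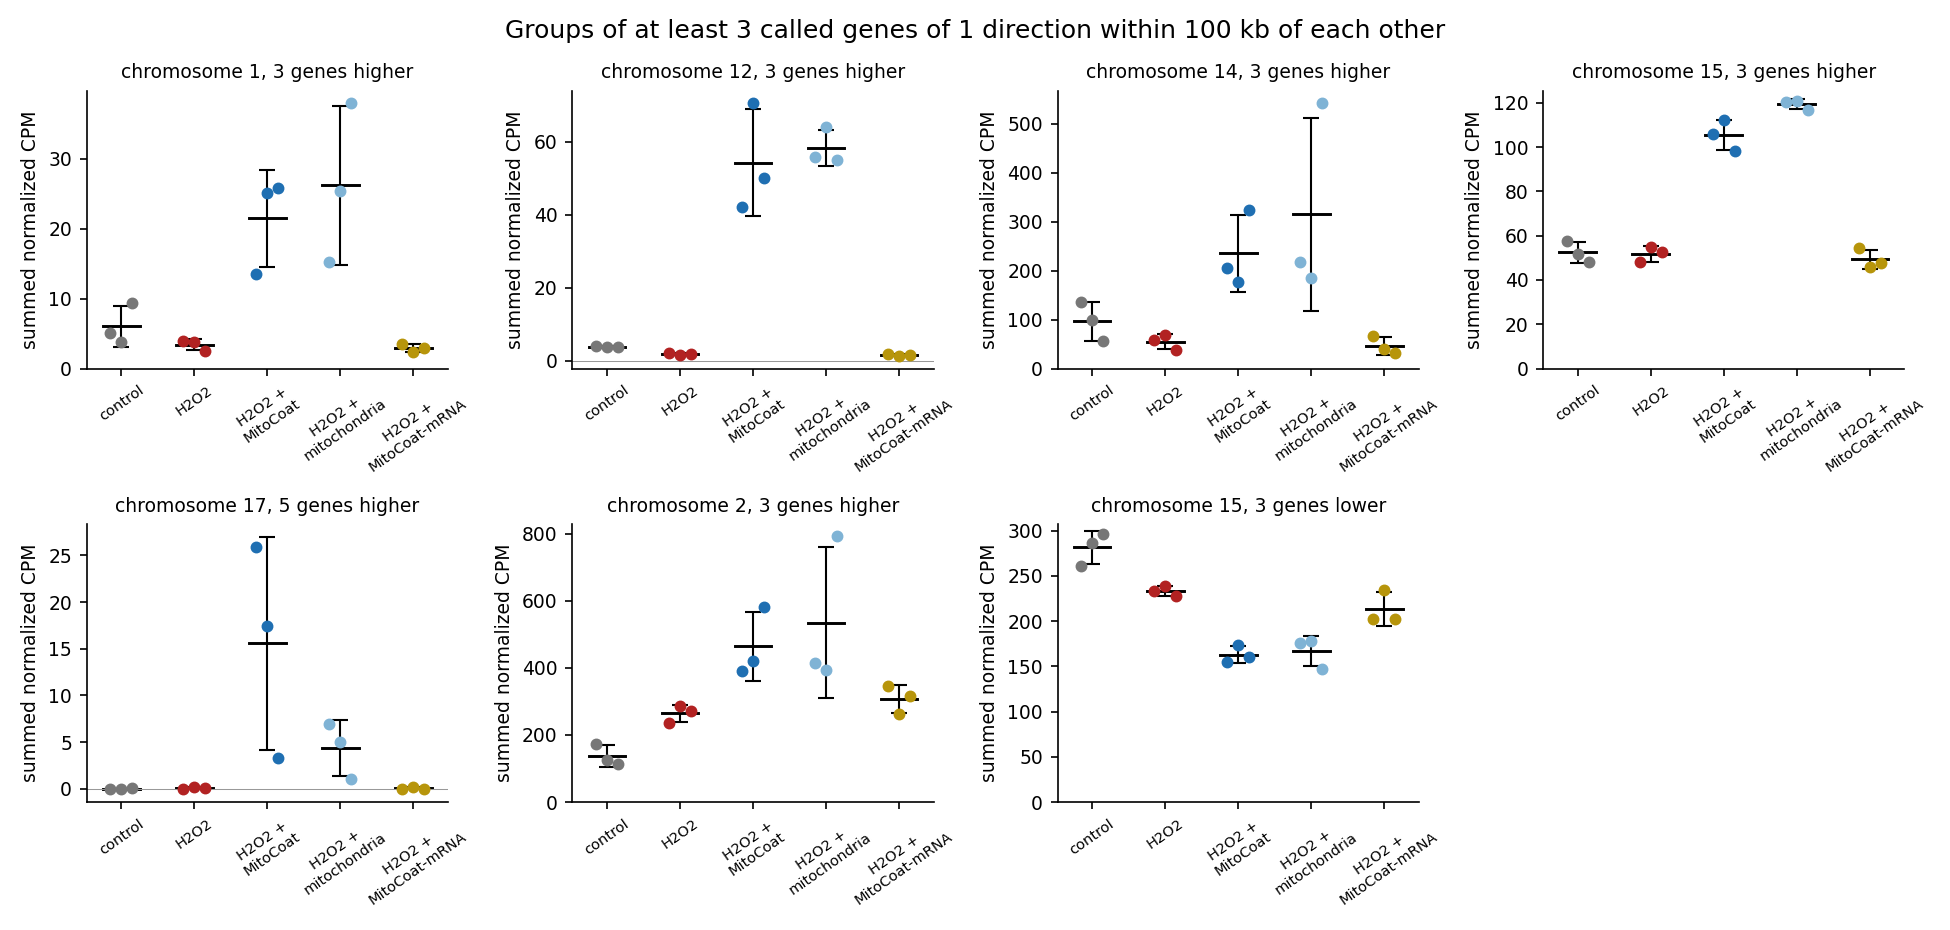
Summed normalized CPM (vertical axes, from 0) of each of the 7 groups of neighbouring called genes in each of the 15 samples, with points for samples and black bars for the mean and SD of 3 samples. In the chromosome 17 group replicate 3 is the lowest MitoCoat sample, whereas in the groups on chromosomes 14, 1 and 2 it is the highest.

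By chromosome, the share of tested genes that rose was between 0.187% on chromosome X, where 1 of 535 genes rose, and 2.82% on chromosome 11, where 11 of 390 rose. The share that fell was between 0.440% on chromosome 19 and 2.78% on chromosome 15 among nuclear chromosomes. The mitochondrial chromosome had 0 called genes in either direction.

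Transcripts of the mitochondrial chromosome were of interest because the treatment itself consisted of mitochondria. The files list 35 genes of this chromosome, of which 29 were tested, and edgeR called 0 of them in MitoCoat against H2O2, which with 29 genes is near the 3.05% called among all tested genes. At an unadjusted p under 0.05 there was 1 such gene, and DESeq2 on the 6 samples also called 0. These genes took 3.81%, 4.61% and 2.97% of all gene counts in the H2O2 samples and 3.60%, 4.48% and 4.17% in the MitoCoat samples. The groups overlapped, with a difference of 0.286 percentage points (two-sided exact permutation p = 0.7, where 0.1 is the smallest p that 3 against 3 samples allow). Without H2O2 replicate 3, the lowest of the 6, the difference was −0.128 percentage points. Libraries were made from poly(A) RNA, which limits what can be said of mitochondrial transcripts with short or no tails.

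Of the 29 mitochondrial genes tested, 13 were at least 200 bases long and 16 were shorter. The longer genes had log2 fold changes from −0.13 to 0.38 with a median of 0.049, and 7 were positive and 6 negative. Their 95% intervals lay within 2-fold in either direction for all 13 and within 1.5-fold for 9. Changes smaller than these intervals were not detectable at this spread between samples.

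The most abundant of them per base of exon, at positions 5323 to 6867 of the mitochondrial chromosome, had 12540, 15960 and 12370 CPM in the H2O2 samples and 12660, 15850 and 16110 CPM in the MitoCoat samples. Its log2 fold change was 0.12 with a 95% interval from −0.21 to 0.44. The gene at positions 10160 to 11537 had the smallest p of the 13. It held 171, 208 and 111 CPM in the H2O2 samples and 196, 239 and 208 CPM in the MitoCoat samples, with a log2 fold change of 0.38 (95% interval −0.065 to 0.83, edgeR adjusted p = 0.43). The ranges of the groups overlapped for all 13 genes, and the share of tested genes with ranges that were fully apart was 20.7%, so that few of 13 genes would be apart at that share.

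**Figure D4:**
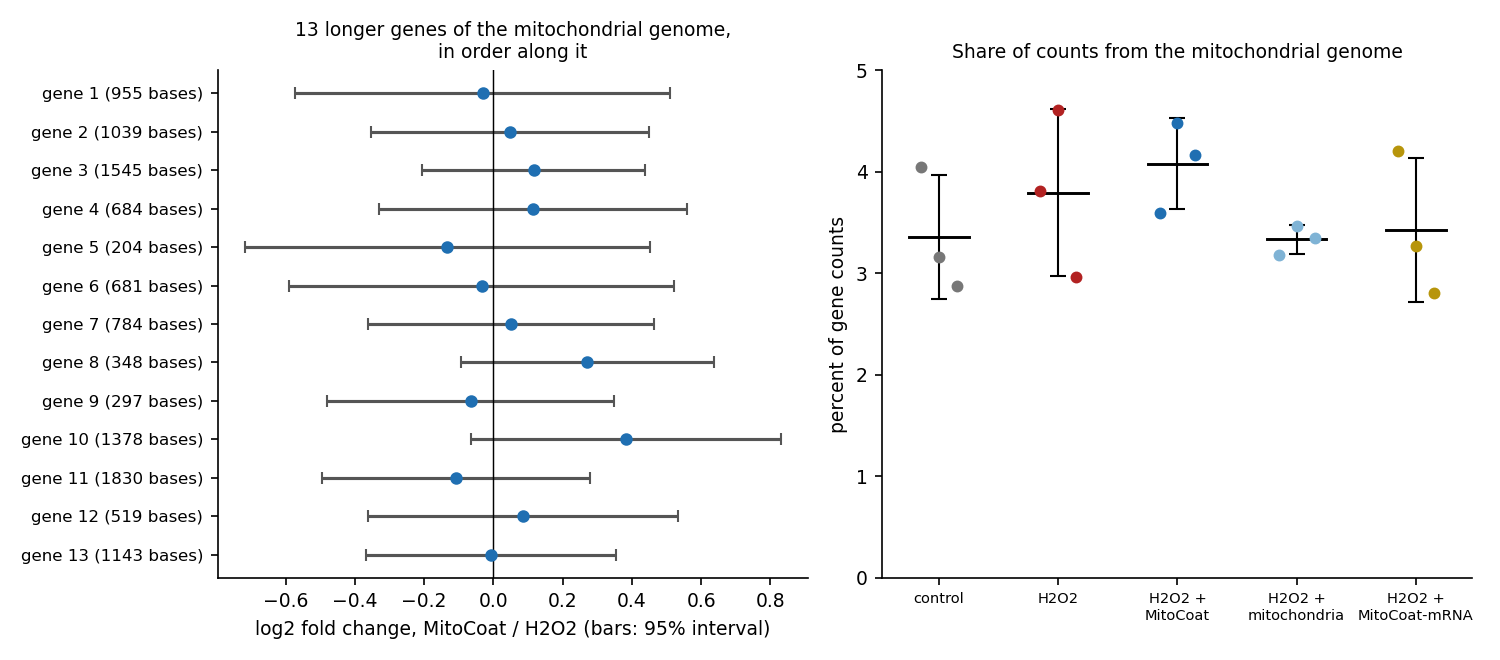
Left, log2 fold change of MitoCoat over H2O2 with 95% interval for the 13 longer genes of the mitochondrial chromosome in their order along it; right, percent of all gene counts from the mitochondrial chromosome in each of the 15 samples, with points for samples and black bars for the mean and SD of 3 samples. All 13 intervals include 0, and the MitoCoat samples (3.60% to 4.48%) lie within the range of the H2O2 samples (2.97% to 4.61%).

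The samples outside the comparison show where the 479 genes stood in the other groups. The mean log2 CPM of the 231 genes that rose was 2.57 ± 0.04 (SD, n = 3) in H2O2 samples and 4.29 ± 0.11 in MitoCoat samples, a difference fixed by the calls. It was 2.56 ± 0.08 in control samples, 4.20 ± 0.01 with unmodified mitochondria and 2.65 ± 0.07 with MitoCoat-mRNA. Over the 181 of these genes with at least 1 CPM in H2O2 samples, which leaves out the 17 without counts there, it was 5.10 ± 0.04 with MitoCoat and 5.13 ± 0.08 with unmodified mitochondria. The 248 genes that fell had a mean of 6.07 ± 0.06 in H2O2 samples, 5.27 ± 0.04 in MitoCoat samples, 6.31 ± 0.13 in control samples, 5.36 ± 0.01 with unmodified mitochondria and 5.96 ± 0.08 with MitoCoat-mRNA. Over all tested genes the group means lay between 3.54 and 3.60. The samples given unmodified mitochondria were thus near the MitoCoat samples for both sets, and those given MitoCoat-mRNA were near the H2O2 samples.

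**Figure D5:**
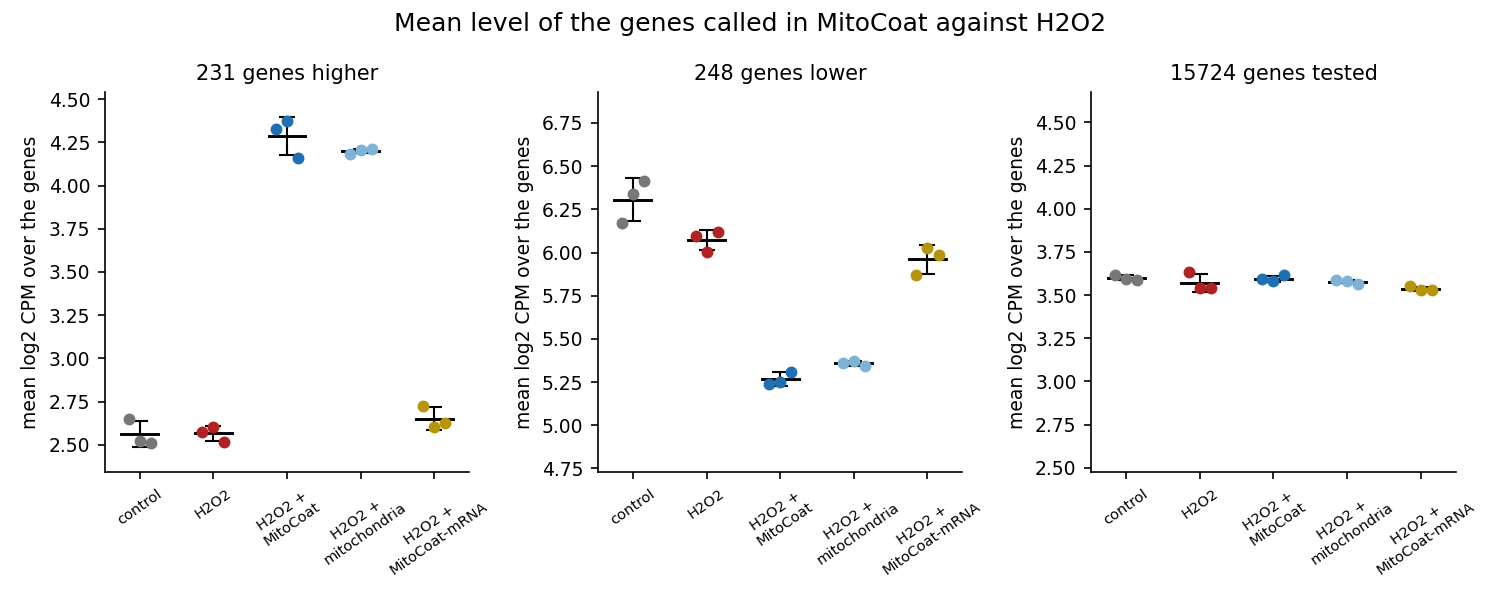
Mean log2 CPM over the 231 genes that rose, the 248 genes that fell and all 15724 tested genes in each of the 15 samples, with axes of equal span, points for samples and black bars for the mean and SD of 3 samples. Samples given unmodified mitochondria lie near the MitoCoat samples (4.20 and 4.29 for genes that rose, and 5.13 and 5.10 for the 181 of them with at least 1 CPM in H2O2 samples, not drawn), which is above the H2O2 samples for genes that rose and below them for genes that fell.

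Each treatment was compared with the same 3 H2O2 samples, so these fold changes are not independent and are set side by side without a test. Unmodified mitochondria against H2O2 gave 560 called genes, or 3.59% of 15613 tested. For the genes that rose with MitoCoat, the median log2 fold change was 1.17 with MitoCoat, 1.12 with unmodified mitochondria and 0.045 with MitoCoat-mRNA, over the 231, 226 and 206 of them tested in each comparison. For the 248 genes that fell, all of them tested in each, it was −0.73, −0.60 and −0.095. In MitoCoat-mRNA against H2O2, edgeR called 0 of 15506 tested genes (0%), with 463 genes at an unadjusted p under 0.05, and DESeq2 on the 6 samples also called 0. H2O2 against control gave 1125 called genes (7.19% of 15650). Of the 207 genes that rose with MitoCoat and were tested there, 18 had risen and 12 had fallen with H2O2, and of the 248 genes that fell, all tested, 15 had risen and 52 had fallen with H2O2.

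The difference between coated and unmodified mitochondria was tested directly on their 6 samples. edgeR called 0 of 15731 genes (0%), with 779 genes at an unadjusted p under 0.05 and a smallest adjusted p of 0.889. For the 231 genes that rose against H2O2, the median log2 difference of MitoCoat minus unmodified mitochondria was −0.017, and the 95% interval lay within 1.5-fold in either direction for 124 genes. For the 248 genes that fell, the median was −0.095 and 203 intervals lay within 1.5-fold. The same share was 61.0% over all tested genes, 53.7% for genes that rose and 81.9% for genes that fell. For the remaining genes a difference of that size between the 2 preparations was not excluded.

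Replicate numbers paired the MitoCoat and unmodified mitochondria samples by their shared deviations, and with the replicate number as a block edgeR called 5 genes, all higher with MitoCoat. DESeq2 without the block called 3 on the 6 samples and 0 when all 15 samples were fitted together. Of the 3, 2 were among these 5 and 1 was lower with MitoCoat than with unmodified mitochondria. These genes are given because they were called, and apart from ENSRNOG00000039975 they were not chosen by the rule for named genes. The 5 genes included ENSRNOG00000039975, with a log2 difference of 1.78 (adjusted p = 0.0048). Another 2 of the 17 genes without counts in H2O2 samples were among them, at chr17:39188311-39463715 (log2 difference 1.84) and at chr1:79680194-79708835 (1.61). ENSRNOG00000039975 and these 2 genes had counts in every sample of both preparations, lowest in replicate 3 of each. The fourth lies at chr1:221158098-221158792 and held 754, 936 and 1016 CPM with unmodified mitochondria and 1094, 1598 and 1993 CPM with MitoCoat, and was also called by DESeq2 on the 6 samples (adjusted p = 0.031).

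The gene that DESeq2 called lower with MitoCoat than with unmodified mitochondria lies at chr3:176731769-176744377. Against H2O2 it was among the genes that rose with MitoCoat. It held 40.1, 41.2 and 42.1 CPM with unmodified mitochondria and 28.5, 30.3 and 27.8 CPM with MitoCoat, a log2 difference of −0.51 (DESeq2 adjusted p = 0.042). edgeR did not call it with or without the block.

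The fifth gene called with the block was the mitochondrial gene at positions 10160 to 11537, with 120, 147 and 138 CPM with unmodified mitochondria and 196, 239 and 208 CPM with MitoCoat. Its log2 difference was 0.66 in both fits, with an adjusted p from edgeR of 0.014 with the block and 0.89 without it, and DESeq2 on the 6 samples without the block called it as well (adjusted p = 0.00023). All 13 longer mitochondrial genes were higher with MitoCoat than with unmodified mitochondria, by 0.24 to 0.66 on the log2 scale, and the other 12 were not called. These 13 share 1 chromosome and its share of counts, so they are not separate observations. The mitochondrial chromosome took 3.18% to 3.47% of counts with unmodified mitochondria, below every MitoCoat sample (3.60% to 4.48%). The H2O2 samples took 2.97% to 4.61%, a range that covers both. In the 17 genes without counts in H2O2 samples the sums with unmodified mitochondria were 27.9, 24.4 and 7.50 CPM. These genes entered the analysis through their counts in the MitoCoat samples, which favours higher values there, so these sums do not compare the preparations. Replicate 3 held the lowest sum of these genes with both preparations.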

How the data were processed

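Reads had been trimmed with Trimmomatic 0.36, aligned to Rnor6.0 with STAR 2.5.2b and assigned to exons with featureCounts of Subread 1.5.2 using uniquely mapped reads, and the authors deposited raw counts per gene for each sample. These counts covered 32552 genes. For each comparison, edgeR 4.0.16 in R 4.3.3 filtered its 6 samples with filterByExpr, scaled them by TMM and applied the quasi-likelihood test. DESeq2, which the authors used, served as an alternative in version 1.42.0. The alternatives also covered size factors, filters, all 15 samples, a replicate block and each sample left out. The share of mitochondrial counts was compared by an exact permutation test. Mean log2 CPM used a prior count of 2.

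The rule for named genes took the 15 largest changes per direction among called genes with a mean of at least 1 CPM over the 6 samples and no overlap between groups, and the 10 most abundant called genes. Of 32552 identifiers, 0 matched the RefSeq table of another assembly given here, so the gene lists and cell markers laid down for this work could not be applied, no sequence could be linked, and at most 2 identifiers per direction are printed. The members and lists were chosen with earlier results of these data known. The fits were tested on simulated data. No 2 samples held identical counts. Same-numbered MitoCoat and unmodified mitochondria samples deviated together (r = 0.251, 0.241 and 0.213 across genes), so their blocked fit is given. Columns that name no sample of the series numbered 0.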

Additional observations from a re-analysis of the deposited data

How the results depend on the processing

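For MitoCoat against H2O2, every one of the 479 called genes that an alternative tested kept its direction under all 13 alternatives. The counts of genes higher and lower were 407 and 495 with DESeq2 on the 6 samples, 620 and 794 with DESeq2 on all 15 samples, 439 and 465 with edgeR on all 15 samples, and 394 and 530 with the replicate block. With 1 sample left out they ranged from 110 to 219 higher and from 91 to 228 lower. The counts without H2O2 replicate 1 were 136 and 125, without H2O2 replicate 3 117 and 105, and without MitoCoat replicate 1 144 and 161. Replicate numbers were not taken as pairs here, since same-numbered deviations correlated at 0.12, 0.276 and −0.045 across genes, and MitoCoat replicate 3 correlated best with H2O2 replicate 1. The block also called 1 of the 29 mitochondrial genes, at positions 2665 to 2739 (log2 fold change 0.61, edgeR adjusted p = 0.035). The genes that fell more than 2-fold numbered 88 with DESeq2 on all 15 samples and 26 without MitoCoat replicate 2, against 48, and those that rose more than 2-fold 85 without that replicate, against 131. MitoCoat against unmodified mitochondria gave 3 calls with DESeq2 on the 6 samples, 5 with the replicate block, and 0 with DESeq2 or edgeR on all 15 samples or with any 1 sample left out. A minimum of 10 counts in every sample left out the genes without counts in the H2O2 samples. The difference in mitochondrial share ranged from −0.128 to 0.692 percentage points with 1 sample left out, and changed sign without H2O2 replicate 3. Changes that were not called also changed sign, namely ENSRNOG00000014117 in MitoCoat-mRNA against H2O2 (−0.125 to 0.036 with 1 sample left out) and ENSRNOG00000000952 in MitoCoat against unmodified mitochondria (−0.850 to 0.044 with 1 sample left out). The alternatives for genes changed more than 2-fold, for single genes in comparisons other than MitoCoat against H2O2, and, for MitoCoat against unmodified mitochondria, the fits on all 15 samples and the minimum of 10 counts were chosen after seeing the data. The cause of these shifts was not tested.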
